A study of Mus musculus with 14 samples.

Results

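The dominant B cell clone of each of 5 BCR-profiled nodules was described across all genes counted. In each nodule the clone was set by the light chain contig, defined by its V gene, J gene and CDR3 nucleotides, that most barcodes of the BCR library carried. Members were barcodes with that contig that were also cells of the RNA library of the same nodule, held at most 10% mitochondrial UMIs and had no UMI of Cd3d, Cd3e or Cd3g, the T cell receptor signalling chains. This gave 8211 of the 77442 deposited cells of 7 nodules, and the clones are named here by their mouse. Clone 27 had 1757 members, clone 29 had 283, clone 31 had 3887, clone 33 had 976 and clone 34 had 1308, which is 17.7%, 2.01%, 33.6%, 9.7% and 17.4% of the cells of their nodules. The light chain contig, the mitochondrial share and the Cd3 counts chose the members and are given as a description only. The next most frequent light chain contig was carried by 0, 5, 11, 5 and 8 barcodes, in the same order. The mitochondrial limit removed no cell (the highest share among members lay between 2.01 and 8.09%), whereas the Cd3 limit removed 25, 26, 77, 98 and 108 cells, of which 15, 18, 49, 56 and 46 held a single Cd3 UMI.

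All nodules came from cKO mice of the C57BL/6J background, in which both Eif3e alleles are floxed (Eif3e fl/fl), Cre is made from the Ig γ1 constant region locus (Cγ1Cre) and a Rosa26-YFP LSL allele reports Cre activity. Cre is thereby active in B cells that transcribe this locus, as activated B cells do. The nodule of mouse 27 grew in the liver (12 mo), that of mouse 29 in the lung (12 mo), that of mouse 31 in the spleen (13 mo), that of mouse 33 in the thymus (16 mo) and that of mouse 34 in the lung and thymus (9 mo), and 2 further nodules were profiled for the TCR. The liver nodule is described in the study as a secondary tumor grown in a Rag2-/- recipient, whose cells were not told apart from those of the donor. Total cells of the nodules were loaded without a sort, and no nodule from a control mouse was analysed here. There was 1 nodule per mouse, so clone, site, age and mouse cannot be told apart, nor can transplantation for clone 27. Summed UMIs ranged from 3440279 in clone 29 to 47399590 in clone 31, with medians of 9349 to 13896 UMIs per member. The T cells used as reference (no BCR contig and at least 2 Cd3 UMIs) numbered 342 to 3040 per nodule, and the other B cells (another light chain contig and none of the clone's heavy junctions) numbered 37, 37, 24 and 12 in mice 29, 31, 33 and 34 and none in mouse 27. Between 96 and 286 cell barcodes were shared by each of the 21 pairs of libraries, 0 to 7 of them between members of 2 clones, and 2 cells carried the light chain of another mouse's clone.

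As background, a B cell that meets antigen with T cell help can enter a germinal centre, where the V regions of its receptor are mutated and its heavy chain is switched from IgM to another class. Germinal centre B cells divide fast, present antigen on MHC class II to T follicular helper cells, and leave as memory B cells or antibody-secreting plasma cells. Cells that descend from 1 B cell share the V, D and J junctions of their receptor, so the junction sequence (CDR3) marks a clone, while mutations elsewhere in the V region tell its branches apart. NF-κB transcription factors, BCL2 family proteins and cyclins set whether such cells live and divide, and they are recurrent targets in lymphoma.

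The CDR3 sequences that define the clones are shown because they are the identity of the members and show how far the members of a clone are alike. The light chain CDR3 of all 5 clones was 33 bases long, from an IGKV3-12 to IGKJ4 junction in clone 27, IGKV1-135 to IGKJ1 in clone 29, IGKV3-10 to IGKJ1 in clone 31, IGLV2 to IGLJ2 in clone 33 and IGKV1-135 to IGKJ5 in clone 34. Heavy chain CDR3 sequences were not used to choose the members. Those carried by at least 1% of the members of clones 27, 29, 31 and 34 with the V gene of the commonest one, and the 3 of clone 33 that share its J gene, are given 5′ to 3′ in lower case, with bases that differ from the commonest of that clone in capitals. Only sequences as long as the commonest are marked. Heavy 2 of mouse 33, at 39 against 42 bases, differs but has no capitals.
mouse 27 light: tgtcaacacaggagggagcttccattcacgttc
mouse 29 light: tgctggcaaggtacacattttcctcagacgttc
mouse 31 light: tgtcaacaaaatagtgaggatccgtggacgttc
mouse 33 light: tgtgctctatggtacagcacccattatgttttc
mouse 34 light: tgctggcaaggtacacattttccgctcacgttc
mouse 27 heavy 1: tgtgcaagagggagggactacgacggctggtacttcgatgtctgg
mouse 27 heavy 2: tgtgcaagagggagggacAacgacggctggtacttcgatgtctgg
mouse 29 heavy 1: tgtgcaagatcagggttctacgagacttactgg
mouse 31 heavy 1: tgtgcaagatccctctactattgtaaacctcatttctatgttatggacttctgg
mouse 33 heavy 1: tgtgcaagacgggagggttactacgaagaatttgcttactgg
mouse 33 heavy 2: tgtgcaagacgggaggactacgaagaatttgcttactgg
mouse 33 heavy 3: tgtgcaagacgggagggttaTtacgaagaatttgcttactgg
mouse 34 heavy 1: tgtactagagaggatgactattgg
mouse 34 heavy 2: tgtactagagaAgTtgCctattgg
mouse 34 heavy 3: tgtactagagaggTtgactattgg

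Each clone had 1 light chain junction by construction, but heavy chain junctions differed in number. The heavy contig was found in 64.7% of members in clone 27, 70.3% in clone 29, 86.2% in clone 31, 38.3% in clone 33 and 89.5% in clone 34. In clones 29 and 31 a single heavy junction, IGHV1-85 to IGHJ3 and IGHV1-18 to IGHJ4, reached 1% of members, held by 198 and 3194 cells. Clone 27 (IGHV1-75 to IGHJ1) had 2 that differed by 1 base, held by 772 and 346 cells with no cell holding both. Clone 34 (IGHV9-1 to IGHJ2) had 2 that differed by 3 bases, and here 266 cells held both, 681 only the first and 143 only the second. A further junction of clone 34 was held by 36 cells, and 34 cells held the letters of the second junction with an IGHV9-2 call. Clone 33 (IGHV9-3 to IGHJ3) had a commonest junction in 242 cells, 1 that is 3 bases shorter in 89, 1 with a single changed base in 28, and an IGHJ2 junction without this likeness in 16.

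The V regions showed the clones to differ in how uniform they were. Among members whose light contig had at least 3 UMIs, the commonest full light chain sequence made up 99.1% in clone 27, 99.3% in clone 29, 97.1% in clone 31, 55.5% in clone 33 and 49.2% in clone 34. The lower shares of clones 33 and 34 came with a second sequence, 1 base away in framework 1, in 383 of 975 and 370 of 1308 members. For heavy contigs with the commonest junction, the commonest sequence made up 62.5% of 768 members in clone 27 (73 distinct sequences), 98.6% of 138 in clone 29 (3 distinct), 76.4% of 3192 in clone 31 (219 distinct), 40.9% of 237 in clone 33 (28 distinct) and 94.2% of 942 in clone 34 (30 distinct). The 95% Clopper-Pearson interval was 94.9 to 99.8% in clone 29 and 34.6 to 47.5% in clone 33, so the uniform clone 29 and the diverse clone 33 did not overlap in counting error. Of the distinct heavy sequences, 14, 1, 21, 8 and 3 were held by at least 5 members in the same order of clones, and errors of reads or assembly were not separated from mutation. Contigs also differed in depth, with median light chain UMIs of 245, 30, 67, 41 and 49 and heavy chain UMIs of 31, 3, 7, 11 and 22 per member in the same order, and their part in the number of distinct sequences was not tested.

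**Figure D1:**
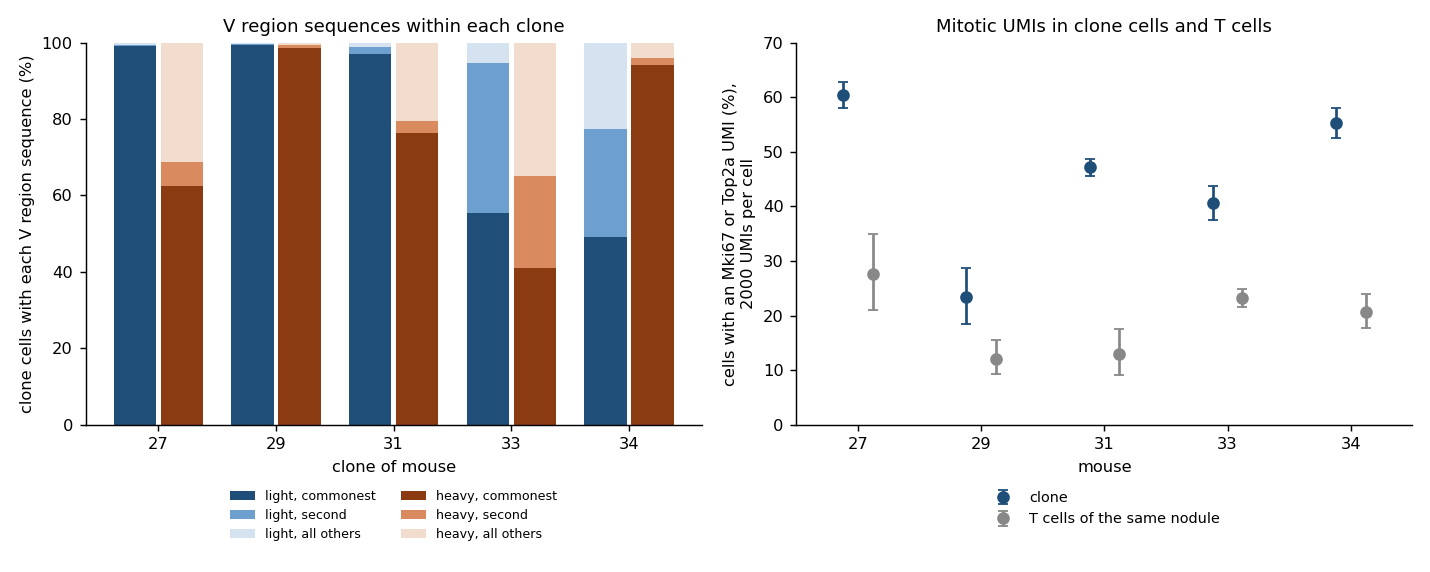
Left, share of clone cells (%) with the commonest, the second and all other V region sequences, for light chains (blue) and heavy chains with the commonest junction (brown), contigs of at least 3 UMIs. Right, share of cells (%) with an Mki67 or Top2a UMI after thinning to 2000 UMIs, with 95% Clopper-Pearson intervals; clone 29 has almost a single heavy chain sequence and the lowest mitotic share, and every clone lies above the T cells of its nodule.

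The receptor was also read in the RNA libraries, as a description, since the light V gene chose the members. The V segment named by the light contig took 99.1%, 94.8%, 91.6%, 53.2% and 99.4% of all light V UMIs of clones 27, 29, 31, 33 and 34, and was the leading light V segment in each. The V segment of the commonest heavy contig, which the rule did not use, took 96.9%, 99.1%, 99.4%, 83.3% and 75.3% and also led in each. Cd79a (ENSMUSG00000003379) and Cd79b, the signalling chains of the BCR, were at 1028, 782, 746, 284 and 1137 CPM in clones 27, 29, 31, 33 and 34 and at 224 to 427 CPM, where CPM are the UMIs of a gene summed over members, per 1000000 UMIs. Ighe, the constant region of IgE, was at 442, 189, 212, 127 and 124 CPM in clones 27, 29, 31, 33 and 34. Igha, that of IgA, was at 69.3, 1.45, 11.1, 48.1 and 336 CPM in clones 27, 29, 31, 33 and 34, so clone 29 was nearly without it and clone 34 had most. Ighm UMIs were scarce in every clone (0 to 8.43 CPM), and Ighd, Ighg1, Ighg2b, Ighg2c and Ighg3 each gave at most 0.253 CPM. Sdc1, the plasma cell surface proteoglycan, was at 0.0211 to 1.74 CPM and Tnfrsf17, the plasma cell survival receptor BCMA, at 0 to 0.872 CPM.

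Transcripts of the targeted gene were present in every clone. Eif3e (ENSMUSG00000022336) was at 233, 237, 169.8, 224 and 191 CPM in clones 27, 29, 31, 33 and 34, against 117 to 169 CPM in T cells of the same nodules. Eif3e was higher in the clones than in T cells (log2 fold change 0.58 ± 0.15 (SE), adjusted p = 0.0278). Calls among the eIF3 subunit genes became fewer when mouse 27, 31, 33 or 34 was left out, as given below. The counts are per gene, so transcripts of an intact and of a deleted allele cannot be told apart in them. The study reports that tumor B and CD4+ T cells lacked YFP and held eIF3e protein in normal amounts.

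The clones were then compared with the T cells of the same nodules, which asks which programmes all 5 clones share relative to a lineage measured in the same library. Sums of UMIs per mouse entered an edgeR quasi-likelihood test with the mouse as a block. Of 12387 genes tested, 3543 were called at an adjusted p of 0.05 (28.6%), 1626 higher in the clones (13.1%) and 1917 lower (15.5%), and the median log2 fold change of all genes was 0.05. A sum over cells mixes how many cells hold a transcript with how much each holds, and fewer cells and less RNA per cell cannot be told apart in it. UMIs of the clone were also counted in T cells, and the clone's own light V segment reached 3.69 to 9.94% of its clone level in T cells, which carried no BCR contig. Its part in the fold changes was not tested.

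Genes of B cell identity and of MHC class II were higher in the clones. Members were chosen by a BCR contig and T cells by Cd3 UMIs, so a difference of lineage is part of each fold change. The calls of B cell genes here therefore describe the choice of cells and are no test of a trait of the clones. All 14 tested B cell identity genes were higher, with a median log2 fold change of 2.56. Ms4a1, which encodes CD20, was at 689, 209, 1094, 222 and 1035 CPM in clones 27, 29, 31, 33 and 34 and at 19.5 to 194 CPM in T cells (log2 fold change 3.08 ± 0.21 (SE), adjusted p = 0.000296). Pax5, the transcription factor that holds B cell fate, was at 112, 217, 67.8, 87.7 and 147 CPM in clones 27, 29, 31, 33 and 34 (log2 fold change 2.77 ± 0.23 (SE), adjusted p = 0.000491). All 10 MHC class II genes were higher (median 2.64), including Ciita, their master regulator (log2 fold change 2.68 ± 0.25 (SE), adjusted p = 0.000639). Of 16 BCR signalling genes, 10 were higher and 1, Malt1, was lower (log2 fold change -0.99 ± 0.17 (SE), adjusted p = 0.00669). The kinase gene Btk was at 38.4, 64.8, 43.4, 89.3 and 52.2 CPM in clones 27, 29, 31, 33 and 34 (log2 fold change 3.25 ± 0.30 (SE), adjusted p = 0.000639). Bcl10, a partner of Malt1, gave a log2 fold change of 0.06 that did not pass (adjusted p = 0.897). When any 1 mouse was left out, 13 or 14 B cell identity genes and 9 or 10 MHC class II genes were called higher, and none lower. Against the other B cells of 4 nodules no gene of the B cell identity list passed, with a list median of -0.24.

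Germinal centre genes were higher in part. Of 15 tested, 8 were called higher and none lower (median 2.02), and 13 of 16 were called higher without mouse 29. Gcsam, a germinal centre signalling adaptor, was at 175, 2.62, 417, 13.5 and 141 CPM in clones 27, 29, 31, 33 and 34 (log2 fold change 3.24 ± 0.24 (SE), adjusted p = 0.000342). Mef2b, a transcription factor of germinal centre B cells, passed (log2 fold change 2.57 ± 0.35 (SE), adjusted p = 0.00268), as did Irf8 (log2 fold change 2.24 ± 0.21 (SE), adjusted p = 0.000706). Bcl6, the factor that maintains the germinal centre state, gave 0.74 (adjusted p = 0.216) and Fas -0.15 (adjusted p = 0.786), both also transcribed in the T cells, at 23.2 to 127 and 66.5 to 115 CPM. The histone methyltransferase gene Ezh2 was higher in all clones, at 442, 214, 262, 308 and 485 CPM in clones 27, 29, 31, 33 and 34 against 89.2 to 176 CPM in T cells (log2 fold change 1.44 ± 0.15 (SE), adjusted p = 0.00106). Without the mouse block, 5 of 15 germinal centre genes were called higher.

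Plasma cell genes were split. Of 9 tested, 5 were higher and 1 lower. The higher ones were Irf4, Jchain, Mzb1, Derl3 and Slamf7, of which Mzb1, an endoplasmic reticulum chaperone of B cells, was at 863, 231, 761, 434 and 428 CPM in clones 27, 29, 31, 33 and 34 (log2 fold change 3.59 ± 0.29 (SE), adjusted p = 0.000424). The lower one was Prdm1, which encodes BLIMP1, the factor that drives plasma cell differentiation, at 80.3, 10.8, 2.62, 11.9 and 15.4 CPM in clones 27, 29, 31, 33 and 34 against 58.2 to 137 CPM in T cells (log2 fold change -2.61 ± 0.49 (SE), adjusted p = 0.00962). Each clone lay below the T cells of its nodule in Prdm1, and clone 27 was the highest of the 5. Of 2 B precursor genes tested, 1 (Vpreb3) was higher and 1 lower. Vpreb3, of the B precursor list, was at 348, 789, 477, 149 and 216 CPM in clones 27, 29, 31, 33 and 34 (log2 fold change 3.27 ± 0.28 (SE), adjusted p = 0.000534). It made up most of the 912 CPM of that list in clone 29. Cd24a, of the costimulation list, was at 815, 299, 1164, 264 and 732 CPM in clones 27, 29, 31, 33 and 34 (log2 fold change 3.09 ± 0.23 (SE), adjusted p = 0.000332). Rag1, Rag2, Dntt and Igll1, genes of precursor B cells, gave 0 to 2.62 CPM in every clone.

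Genes of cell division were higher in the clones than in the T cells, which were themselves dividing. Of 19 S phase genes 10 were called higher (median 0.84), and of 19 genes of G2 and mitosis 13 (median 1.15), with none lower in either list. Mki67, a marker of cycling cells, was at 569, 159, 503, 241 and 550.4 CPM in clones 27, 29, 31, 33 and 34 against 70.8 to 206 CPM in T cells (log2 fold change 1.46 ± 0.30 (SE), adjusted p = 0.0124). Hells, a chromatin remodeller of S phase, was at 130.3, 142, 167, 181 and 127 CPM in clones 27, 29, 31, 33 and 34 (log2 fold change 1.29 ± 0.22 (SE), adjusted p = 0.00682). These counts rested on single mice: without mouse 34, 4 S phase and 6 mitosis genes were called, without mouse 27, 5 and 5, without mouse 29, 5 S phase genes, and without the mouse block 4 and 2. Of 16 DNA repair and mutation genes 6 were higher (3 without mouse 34), among them Ung, the uracil glycosylase of base excision repair (log2 fold change 1.44 ± 0.27 (SE), adjusted p = 0.00902), and Msh6, a mismatch repair gene (log2 fold change 1.25 ± 0.19 (SE), adjusted p = 0.00391). Of 14 eIF3 subunit genes 6 were called higher and none lower, and 3, 1, 1 and 3 were called without mouse 27, 31, 33 or 34. Myc was at 162, 461, 185, 156 and 81.3 CPM in clones 27, 29, 31, 33 and 34 (log2 fold change 1.45 ± 0.25 (SE), adjusted p = 0.00636).

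Per cell, a mitotic UMI (Mki67 or Top2a) was found after thinning every cell to 2000 UMIs in 60.5% of members of clone 27, 23.3% of clone 29, 47.2% of clone 31, 40.6% of clone 33 and 55.2% of clone 34. In T cells of the same nodules the shares were 27.6%, 12.1%, 13%, 23.2% and 20.7%. The clone share was above the T cell share in 5 of 5 nodules, with intervals that did not overlap in any nodule. Over the clones the mean was 45.4% ± 14.5 (SD, n = 5), with clone 29 lowest and clone 27 highest. Thinning left out 12, 0, 11, 6 and 1 members and 172, 744, 319, 324 and 208 T cells that had fewer UMIs, so the T cells compared were those of higher depth. Thinned to 5000 UMIs, the mean was 62.2% in the clones and 48.0% in the T cells, and in mouse 29 the intervals then overlapped (33.2% against 29.4%). Without thinning the means were 74.0% and 23.2%.

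Several programmes were lower in the clones. Beside these, the T cells held macrophage and monocyte markers at 348 to 982 CPM (9 of 10 tested lower in the clones, at 43.5 to 97.1 CPM) and NK cell markers at 157 to 1614 CPM (5 of 6 lower, at 2.03 to 88.7 CPM). Their part in the interferon, NF-κB and homing genes called lower was not tested. Of 14 interferon response genes 11 were called lower and none higher (median -2.32), and 3 without the mouse block. Isg15, a ubiquitin-like interferon target, was at 6.88, 26.2, 41.1, 18.9 and 17.4 CPM in clones 27, 29, 31, 33 and 34 against 273 to 2145 CPM in T cells (log2 fold change -4.62 ± 0.58 (SE), adjusted p = 0.00198). Irf7, a transcription factor of the interferon response, was at 7.66, 2.03, 13.3, 8.28 and 15.1 CPM in clones 27, 29, 31, 33 and 34 (log2 fold change -1.98 ± 0.31 (SE), adjusted p = 0.00498). Ifngr1, a chain of the interferon γ receptor, was lower (log2 fold change -2.84 ± 0.35 (SE), adjusted p = 0.00178), as was Jak1 (log2 fold change -1.44 ± 0.15 (SE), adjusted p = 0.000934). Of 14 BAFF and cytokine receptor genes 7 were lower, and the 2 called higher were those of the BAFF family receptors, Tnfrsf13b (TACI, log2 fold change 2.18 ± 0.28 (SE), adjusted p = 0.00212) and Tnfrsf13c (BAFF receptor, log2 fold change 3.32 ± 0.29 (SE), adjusted p = 0.00059).

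Genes of NF-κB, inhibitors among them, were lower in part. Of 15 NF-κB genes 6 were lower (Relb, Nfkbia, Tnfaip3, Bcl3, Traf1 and Tnip1) and 1, Cd40, was higher. Over all genes tested, 15.5% were called lower and 13.1% higher. Tnfaip3, which encodes the ubiquitin-editing inhibitor A20, was at 57.9, 118, 99.3, 108 and 114 CPM in clones 27, 29, 31, 33 and 34 against 538 to 1523 CPM in T cells (log2 fold change -3.08 ± 0.28 (SE), adjusted p = 0.000603). Nfkbia, which encodes IκBα, was at 353, 235, 477, 274 and 242 CPM in clones 27, 29, 31, 33 and 34 against 763 to 1882 CPM in T cells (log2 fold change -1.63 ± 0.15 (SE), adjusted p = 0.000616). In other B cells Tnfaip3 was at 83.8 to 571 CPM, and the clone difference from them did not pass (log2 fold change -0.96, adjusted p = 0.398). B2m, the light chain of MHC class I, was at 1801, 1337, 2489, 2363 and 1537 CPM in clones 27, 29, 31, 33 and 34 against 3766 to 4702 CPM in T cells (log2 fold change -1.03 ± 0.20 (SE), adjusted p = 0.0115), while of the other MHC class I genes H2-D1 was lower, Calr was higher and 9 of 12 did not pass. The calls of the MHC class I list were thus near the share over all genes and are given as a description. Ptprc, which encodes the phosphatase CD45, was lower as well (log2 fold change -1.48 ± 0.23 (SE), adjusted p = 0.00487).

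Homing genes were lower or not called. Of 11 tested, 8 were lower and none higher, with 3 to 5 called without mouse 27, 31 or 34. Selplg, a selectin ligand, was at 2.29, 31.7, 1.01, 6.46 and 4.88 CPM in clones 27, 29, 31, 33 and 34 against 59.9 to 276 CPM in T cells (log2 fold change -5.02 ± 0.93 (SE), adjusted p = 0.00905), and Itga4, an integrin chain, at 117, 25.9, 162, 160.3 and 29.1 CPM in clones 27, 29, 31, 33 and 34 (log2 fold change -2.15 ± 0.46 (SE), adjusted p = 0.0142). Of 13 BCL2 family genes 3 were lower, namely Bcl2l1 and the paralogs Bcl2a1b and Bcl2a1d, between which the counting could split reads, and 1, the proapoptotic Bid, was higher (log2 fold change 1.70 ± 0.29 (SE), adjusted p = 0.00635). Of 13 genes of the p53 pathway 1 was higher (Sesn1) and 1 lower (Perp), and Trp53 itself gave 0.33 (adjusted p = 0.24). This list had 2 of 13 genes called, beside 28.6% of all genes. The BCL2 family counts stand beside 13.1% of all genes called higher and 15.5% lower.

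The remaining lists had calls in both directions or few calls. Over all genes tested, 13.1% were called higher and 15.5% lower, and the counts of these short lists are given as a description. They were naive and memory B cell genes (2 higher and 4 lower of 14), age-associated B cell genes (0 higher and 5 lower of 8), B-1 and marginal zone genes (0 higher and 2 lower of 9), B precursor genes (1 higher and 1 lower of 2), the MYC network (1 higher and 2 lower of 9), cyclins and their inhibitors (3 higher and 4 lower of 16) and costimulation genes (4 higher and 2 lower of 12). Metabolic and stress lists were the integrated stress response (2 higher and 2 lower of 10) and glycolysis and hypoxia (3 higher and 3 lower of 18), and lymphoma tumor suppressors (2 higher and 6 lower of 16) had more genes lower. The age-associated list had 2 genes called without the block and 3 without mouse 27 or 33.

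**Figure D2:**
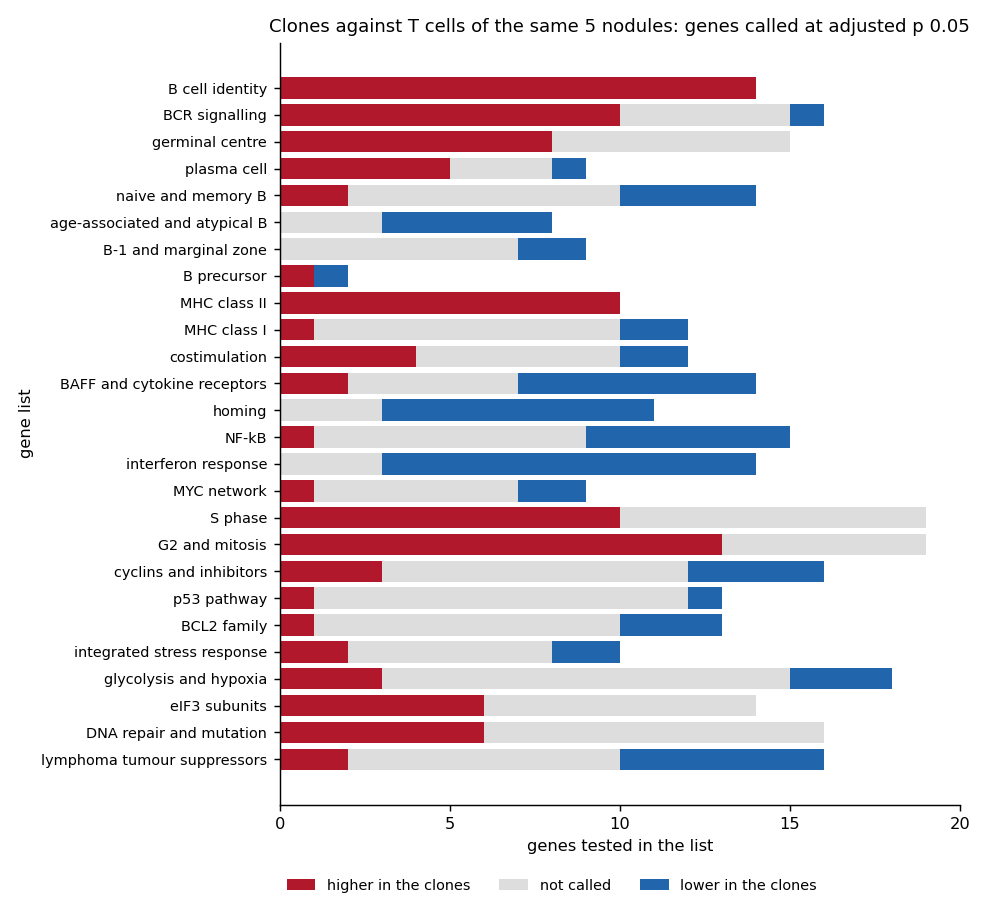
Number of tested genes per list (horizontal axis) called higher (red) or lower (blue) in the clones than in the T cells of the same 5 nodules, or not called (grey), edgeR adjusted p of 0.05. Every tested gene of B cell identity and MHC class II is higher, and interferon response and homing genes are called only in the lower direction. A difference of lineage is part of each call.

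Against the other B cells of 4 nodules, few genes were called. Of 8950 genes tested, 14 passed (0.156%), 3 higher (0.0335%) and 11 lower (0.123%) in the clones, and 1117 had an unadjusted p under 0.05. Of the 11 lower genes, 2 were Igkv segments, which are not named here. Outside these segments the largest difference was in Ighm (ENSMUSG00000076617), at 8.43 CPM in clone 29, 0.211 in clone 31, 0.808 in clone 33 and 0.19 in clone 34. In the other B cells it was at 27726, 175, 11999 and 269.9 CPM in the same order of mice (log2 fold change -11.70 ± 0.75 (SE), adjusted p = 0.000188). The groups did not overlap, and Ighm was lower in 4 of 4 mice. The other B cells of mice 29 and 33 also had most Jchain, at 13066 and 2705 CPM, against 1159 and 233 in mice 31 and 34.

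The other named genes had an adjusted p of 0.0464 each and lay close to the limit. Higher in the clones were Hist1h1b, a histone gene expressed in S phase, at 365 CPM in clone 29, 457 in clone 31, 405 in clone 33 and 680.5 in clone 34 against 71.4 to 205 CPM (log2 fold change 1.89 ± 0.30). Pfn2, an actin-binding profilin, and Dab1, an adaptor of reelin signalling, also passed as higher. Dab1 had 0 UMIs in the other B cells of mice 29, 33 and 34 and Pfn2 in those of mice 29 and 33, where 3 UMIs would be 13.6, 13.8 and 27.9 CPM in mice 29, 33 and 34. The clones were at 0.872, 14.3 and 15.6 CPM of Dab1 in these mice and at 14.2 and 1.41 CPM of Pfn2 in mice 29 and 33, near or under these limits. A direction can be read for Dab1 in mouse 31 (340.2 against 23.8 CPM). For Pfn2 it can be read in mice 31 and 34 (469.6 against 31.7 CPM and 115 against 18.6 CPM). Lower were Jun (log2 fold change -2.10 ± 0.31) and Atf3 (-3.07 ± 0.43), 2 transcription factors of the immediate response to stress, the lipid transport genes Apoe (-3.59 ± 0.53) and Abca1 (-2.43 ± 0.34), and Clec2g, Tbc1d9, Plbd1 and Cyp4f18. Macrophage and monocyte markers summed to 327, 79.4, 1659 and 18.6 CPM in the other B cells of mice 29, 31, 33 and 34, against 43.5 to 97.1 CPM in these clones. Neutrophil markers summed to 2388 CPM in the other B cells of mouse 29 and to at most 9.31 CPM in the others, and the part of these cells' RNA in the genes called was not tested. Jun was at 444 to 1019 CPM in the clones and 1544 to 11728 CPM in the other B cells. With 12 to 37 other B cells per mouse the count depended on single choices, from 0 without the mouse block (795 genes at an unadjusted p under 0.05) to 211 with DESeq2, and it was 35 without mouse 29 and 6 without mouse 31. Without the light chain relatives among other B cells, an alternative chosen after seeing the data, mouse 33 fell under the minimum of 10 cells, 12 genes were called and 9 of the 12 named genes no longer passed. Another scaling (RLE) moved the median log2 fold change of all genes from 0.16 to 0.05. No gene of the germinal centre, MHC class II, S phase or mitosis lists passed, with list medians of 0.47, -0.37, 1.29 and 1.99.

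The 5 clones differed among themselves in which B cell programmes they held. With 1 sample per clone no test between clones is possible, so levels are described, and their exact Poisson intervals cover counting error only. For 26 lists the summed level of each clone was set beside the median of the 5 clones. Of 130 levels, 4 were at least 2 times and 10 at most 0.5 times the median, and clone 29 held 7 of these 14.

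**Figure D3:**
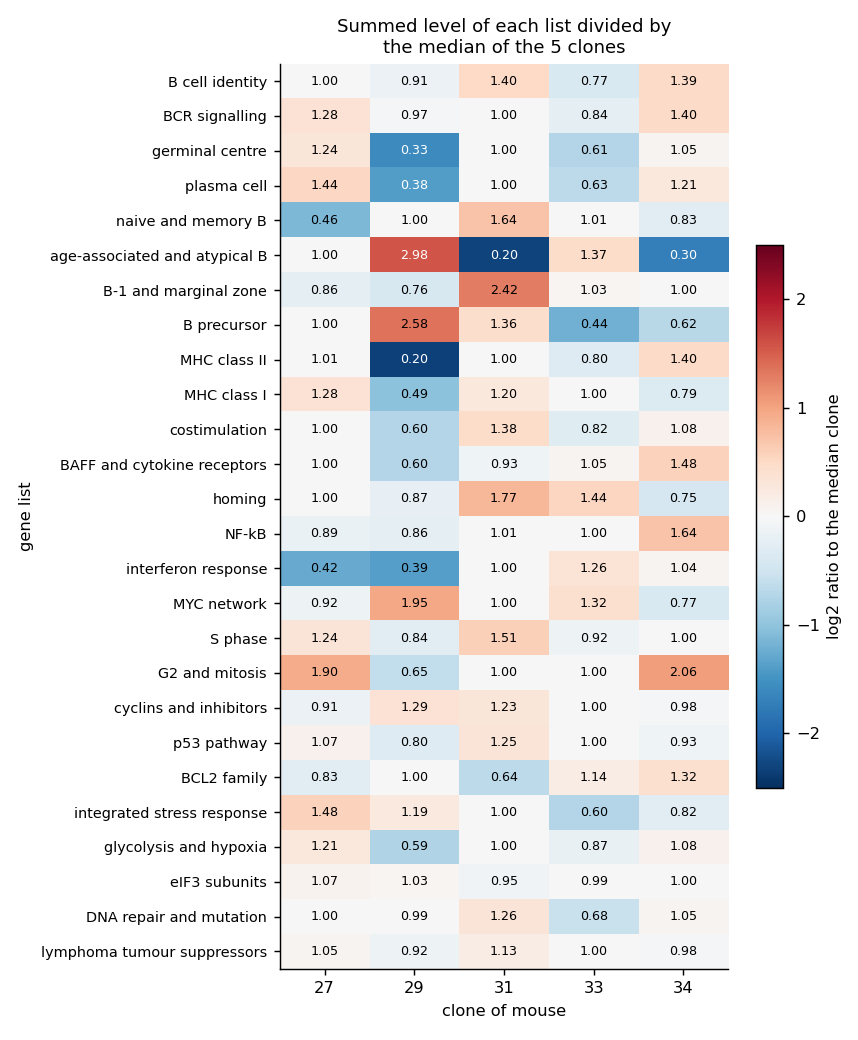
Summed CPM of each gene list (rows) in each clone (columns) divided by the median of the 5 clones, printed in each square and colored by its log2 value. Clone 29 stands lowest in MHC class II (0.20), germinal centre (0.33) and plasma cell (0.38) genes and highest in age-associated (2.98) and B precursor (2.58) genes, while eIF3 subunits lie between 0.95 and 1.07 in all clones.

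The germinal centre list was higher in clones 27, 31 and 34 than in clones 33 and 29. It summed to 3051, 819, 2467, 1494 and 2593 CPM in clones 27, 29, 31, 33 and 34. The place of clone 33 depended on how its members were defined. Limited to members with the commonest heavy junction, it was at 2016 CPM. Mef2b was at 356, 4.94, 346, 28.5 and 160.2 CPM in clones 27, 29, 31, 33 and 34. S1pr2, which keeps germinal centre B cells in place, was at 117, 2.03, 106, 10.1 and 43.1 CPM in clones 27, 29, 31, 33 and 34. After thinning, an S1pr2 UMI was found in 21.9% (95% interval 20 to 23.9%) of members of clone 27, 20.5% of clone 31, 2.16% of clone 33, 9.03% of clone 34 and 0.353% (95% interval 0.00895 to 1.95%) of clone 29. Clones 27 and 31 were highest in both genes, followed by clones 34, 33 and 29. In the other B cells the germinal centre list summed to 658, 3111, 1327 and 1713 CPM in mice 29, 31, 33 and 34, also lowest in mouse 29. Mybl1, a transcription factor of germinal centre B cells, was also highest in clones 31 and 27, at 104, 6.98, 124, 13 and 61.8 CPM in clones 27, 29, 31, 33 and 34. Rgs13, a brake on chemokine receptor signalling in germinal centre B cells, was instead found almost solely in clone 34, at 499.5 CPM and in 55.4% of its members, with 13.6 CPM or less in the others.

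Clone 29, low in the germinal centre list, was the median of the 5 clones in the naive and memory B cell list (744 CPM, against 341 to 1220.0 CPM) and highest in single genes of this and other lists. Bach2, of the germinal centre list, a repressor that holds B cells short of plasma cell differentiation, was at 20.7, 364, 9.7, 115 and 171 CPM in clones 27, 29, 31, 33 and 34. S1pr1, the exit receptor, was at 69.2, 253, 13.1, 47.2 and 6.08 CPM in clones 27, 29, 31, 33 and 34. Cd38, which mouse B cells lose in the germinal centre, was at 25 CPM in clone 29 and at most 0.887 CPM elsewhere. Zeb2, a transcription factor of age-associated B cells, was at 88.1, 275, 16.8, 62.6 and 17.1 CPM in clones 27, 29, 31, 33 and 34, whereas Tbx21 and Itgax, which define those cells, were at 1.74 and 1.74 CPM in clone 29. Sox4, a gene of precursor B cells, was at 57 CPM against 0.0673 to 0.549 CPM in the other clones, with Rag1 and Rag2 at 2.62 and 0.581 CPM.

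The same clone had less antigen presentation RNA than the other 4. H2-Aa was at 2724, 230.2, 2379.8, 1975 and 3683 CPM in clones 27, 29, 31, 33 and 34, found after thinning in 32.2% of members of clone 29 and 95.5% to 99.5% of the others. Cd74, the invariant chain, was at 7304, 2083, 8194, 6096 and 11910.0 CPM in clones 27, 29, 31, 33 and 34. The MHC class II list summed to 2963 CPM in clone 29 and to 11923 to 20852 CPM in the others, and 10 of 10 of its genes were lowest in clone 29. In the other B cells this list was lowest in mouse 29 too. It summed to 3609, 25227, 10492 and 26621 CPM in those of mice 29, 31, 33 and 34. The low level was thus not particular to the clone within its nodule, and its cause was not tested. MHC class I followed, with H2-K1 at 1409.6, 221, 1258, 779.8 and 595 CPM in clones 27, 29, 31, 33 and 34 and Psmb9, an immunoproteasome subunit, at 454, 48.3, 251, 319 and 381 CPM in clones 27, 29, 31, 33 and 34. Myc was highest in clone 29, at 461 CPM (95% interval 439 to 485), with a UMI after thinning in 52.7% of members against 10.5% to 24.4% in the other clones. Cdkn2a, a tumor suppressor locus, was at 41.3, 263, 94.9, 34.3 and 7.85 CPM in clones 27, 29, 31, 33 and 34, and Ccnd1, a D-type cyclin, at 48 CPM in clone 29 and at most 1.46 CPM elsewhere.

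RNA of other cell types was present beside these values in the nodule of mouse 29. Neutrophil markers (8 genes) summed to 515 CPM in clone 29, to 0.823 to 4.7 CPM in the other clones, and to 3311 CPM in the T cells of mouse 29, led by S100a8 and S100a9 at 177 and 217 CPM in the clone. Stromal, endothelial and epithelial markers (14 genes) summed to 123 CPM in clone 29 and 4502 CPM in its T cells, with Scgb1a1, a secreted product of lung club cells, at 8.72 and 3801 CPM. Their part in the levels of clone 29 was not tested. The T cell markers (12 genes, Cd3 genes aside) summed to 7.41 to 80.4 CPM over the 5 clones, macrophage and monocyte markers (12 genes) to 43.5 to 97.1 CPM, and erythroid markers (8 genes) to 3.71 to 91.4 CPM. NK cell markers (7 genes) reached 88.7 CPM in clone 31, of which Klrb1c gave 77.8 CPM, with Ncr1 at 0 UMIs in all clones, Klrk1 at 0.0211 CPM and the T cells of that nodule at 19.2 CPM for Klrb1c.

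**Figure D4:**
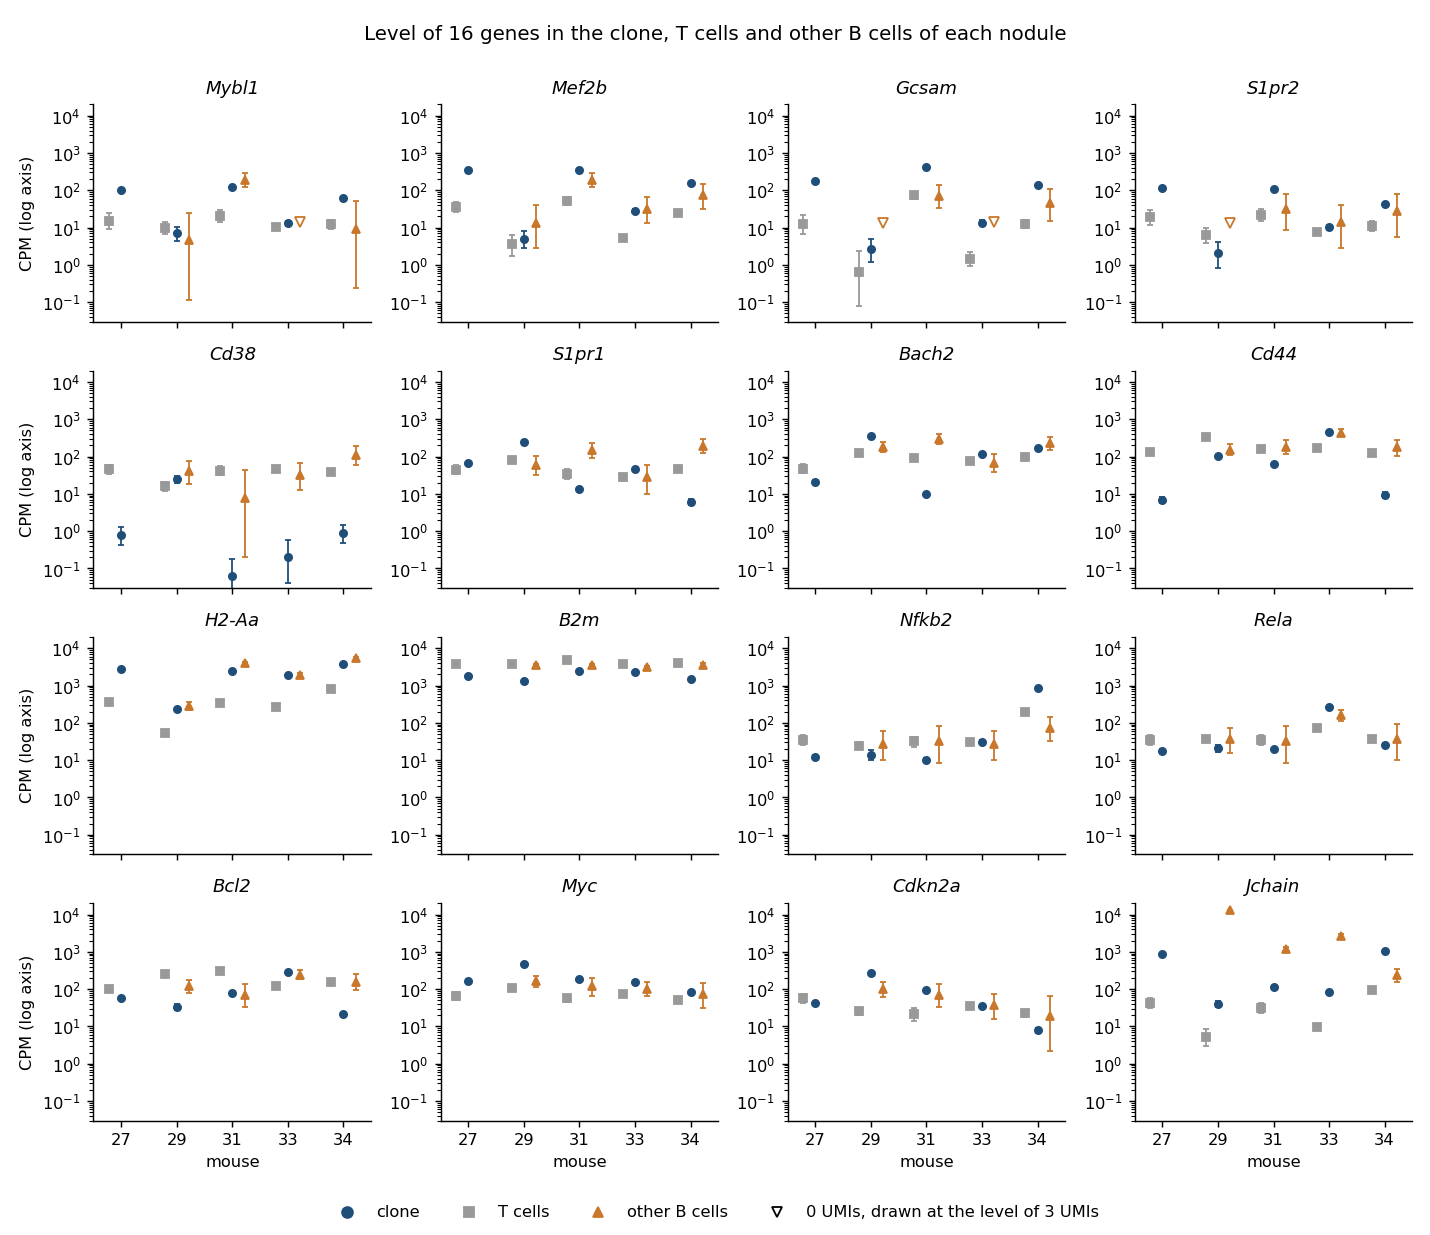
CPM on a log axis of 16 genes in the clone (circles), T cells (squares) and other B cells (triangles) of each mouse, with 95% Poisson intervals. Germinal centre genes are high in clones 27 and 31 and low in clone 29, Cd38 exceeds 1 CPM in clone 29 alone among the clones, and single clones stand out in Nfkb2 (34), Rela and Cd44 (33) and Cdkn2a (29).

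Clone 33 was highest in single survival, adhesion and NF-κB genes, while its whole lists were not the highest, at 1.14 times the median clone for the BCL2 family, 1.44 for homing and 1.00 for NF-κB. Bcl2, which protects against apoptosis, was at 59.1, 32.6, 77, 291 and 21 CPM in clones 27, 29, 31, 33 and 34, and a UMI was found after thinning in 39.4% (95% interval 36.3 to 42.5%) of members of clone 33 against 4.13% to 13.4% in the other clones. Cd44, the hyaluronan receptor, was at 6.93, 102, 62.6, 445 and 9.31 CPM in clones 27, 29, 31, 33 and 34. Ccnd2, a D-type cyclin, was at 157 CPM in clone 33 and at most 16.9 CPM elsewhere. Rela, an NF-κB subunit, was at 17.4, 20.6, 20.1, 272 and 25.6 CPM in clones 27, 29, 31, 33 and 34, and Ccr6, a chemokine receptor, at 59.7 CPM in clone 33 and at most 2.91 CPM in the others. Nt5e, which encodes the memory B cell marker CD73, was at 103 CPM against 3.58 to 20.1 CPM, and Il13ra1, a receptor chain for IL-4 and IL-13, at 83.1 CPM against 0.232 to 7.28 CPM.

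Clone 34 stood apart in the alternative NF-κB subunit. Nfkb2 (ENSMUSG00000025225) was at 12.2, 14, 10.1, 31.1 and 837 CPM in clones 27, 29, 31, 33 and 34, and its UMIs were found after thinning in 63.3% (95% interval 60.6 to 65.9%) of members of clone 34 and 19.8% of the T cells of that nodule, against 2.18% to 5.15% in the other clones. Nfkbie, an inhibitor and target of NF-κB, was at 28.2, 32, 9.39, 25.8 and 130.2 CPM in clones 27, 29, 31, 33 and 34, and Traf1 at 39.5, 16, 16.4, 91.3 and 211 CPM in clones 27, 29, 31, 33 and 34. Relb, the usual partner of the Nfkb2 product, was at 29.4 to 51.4 CPM over all clones. Tnfrsf13c, the BAFF receptor that signals to Nfkb2, was highest in clone 34, at 205, 77.9, 12.4, 314 and 715 CPM in clones 27, 29, 31, 33 and 34. Jchain, which joins IgA and IgM subunits, was at 857, 39.8, 112, 83.5 and 1051 CPM in clones 27, 29, 31, 33 and 34 and in 78.3% of members of clone 34 and 66.9% of clone 27, and of the 5 clones these 2 also had most Igha. Mcl1, another survival gene of the BCL2 family, was at 332, 567, 297, 175 and 738 CPM in clones 27, 29, 31, 33 and 34, highest in clone 34 and lowest in clone 33.

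Clone 31 had the highest level of the B cell identity list (3247 CPM) and was lowest in single B cell genes. Ikzf3, which encodes the lymphoid factor Aiolos, was at 263, 318, 1.2, 472 and 521 CPM in clones 27, 29, 31, 33 and 34, with a UMI in 0.232% of members of clone 31 and 37.5% to 64.8% of the others. Blnk, the adaptor downstream of the BCR, was at 339, 333, 36, 306 and 533 CPM in clones 27, 29, 31, 33 and 34, and Tnfrsf13c was lowest in this clone too. Dmd, which encodes dystrophin, was at 237, 18, 1117, 0.471 and 4.62 CPM in clones 27, 29, 31, 33 and 34, and Lmo7 at 336, 394, 1287, 63.8 and 164 CPM in clones 27, 29, 31, 33 and 34. Both were put on a list from earlier results of these data, so their level here is a description. The B-1 and marginal zone list of clone 31 summed to 1204 CPM, 2.42 times the median clone, of which Zbtb20 alone gave 1151 CPM. Cd5, the B-1 marker, was at 0.0844 CPM. Ifit1, an interferon target, was at 1.79, 8.43, 123, 1.75 and 17.2 CPM in clones 27, 29, 31, 33 and 34, although Isg15 was at 41.1 CPM. The T cells of mouse 31 were highest in Ifit1 as well, at 1125 CPM.

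Genes with a level in 1 clone only were found by a rule of size, at least 50 CPM, 8 times the highest other clone and 3 times the T cells of the nodule, with 5 CPM added to both sides of each ratio. In clone 27, 2 of the 3478 genes at 50 CPM or more passed (0.0575%), in clone 29, 9 of 3038 (0.296%), in clone 31, 23 of 3224 (0.713%), in clone 33, 7 of 2841 (0.246%) and in clone 34, 5 of 3389 (0.148%). Without mouse 27, the counts of clones 31 and 34 were 36 and 9. The rule chose the genes, so no test is given. Pax2, a transcription factor of kidney and ear development, was at 244 CPM in clone 33 and at 0 to 0.0633 CPM in the others, and its UMIs were found after thinning in 34.8% (95% interval 31.8 to 37.9%) of members. Agbl1, a carboxypeptidase gene, was at 409 CPM in clone 29 and at most 0.443 CPM in the others. Clone 29 also held Bhlhe41, a repressor used by B-1 and memory B cells, at 242 CPM, the lipid desaturase gene Scd1 at 370.3 CPM and the kinase anchor Akap12 at 168 CPM, with nearest other clones at 11.5, 21.9 and 6.22 CPM.

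Clone 31 had the longest list, with Fras1, a basement membrane protein, at 104 CPM, the growth factor Fgf7 at 114 CPM, the synaptic scaffold Dlgap1 at 379 CPM and Dab1 at 340.2 CPM, in 16.5%, 18.8%, 46.7% and 47% of its members after thinning. Clone 27 had Eif5a2, a paralog of the translation factor eIF5A, at 176 CPM and in 25.6% of members, and the gap junction gene Gja1 at 51.1 CPM. In clone 33 Srgap3, Avpi1 and 3830403N18Rik were at 109, 76.4 and 66.8 CPM. In clone 34 Gm46620 was at 1194 CPM in 87.5% of members, and Gm47914 at 54.1 CPM, beside Rgs13 and Nfkb2.

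T cells of the same nodule also held these transcripts, at lower levels as the rule required. Pax2 was at 26.5 CPM in T cells of mouse 33 and at 0 UMIs in those of the other mice, Agbl1 at 52.9 CPM in mouse 29 and Dlgap1 at 56 CPM in mouse 31. The few other B cells of a nodule could hold them near the clone level, with Pax2 at 194 CPM in those of mouse 33, Gm46620 at 614 CPM in mouse 34 and Agbl1 at 182 CPM in mouse 29, whereas Dlgap1 was at 15.9 CPM in mouse 31. Of the 24 other B cells of mouse 33, 8 remained when cells whose light contig has the V gene, J gene and CDR3 length of the clone's were left out, and 37, 37 and 11 remained in mice 29, 31 and 34. The origin of these UMIs was not tested.

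Genes low in 1 clone only, at least 8 times below the lowest other clone when that is at 50 CPM or more, with the same 5 CPM added, numbered 2 of 2067 in clone 27 (0.0968%), 8 of 2239 in clone 29 (0.357%), 3 of 2135 in clone 31 (0.141%), 1 of 2208 in clone 33 (0.0453%) and 0 of 2068 in clone 34. Without mouse 27, those of clones 31 and 33 were 6 and 3. In clone 27 Dock10, an activator of small GTPases, was at 7.38 CPM against 142 to 326 CPM, and Sptbn1, a spectrin, at 4.92 CPM against 80.1 to 336 CPM. In clone 29 Ly6a, which encodes the surface antigen Sca-1, was at 3.49 CPM against 247 to 392 CPM, and Parm1 and Glipr1 at 4.94 and 3.78 CPM against at least 114 and 92.5 CPM. In clone 31 Plek, a pleckstrin, and Rgs1, a brake on chemokine signalling, were at 3.63 and 2.22 CPM against at least 81.3 and 59 CPM, beside Ikzf3. In clone 33 Arl5c was at 2.83 CPM against 80.1 to 141 CPM. T cells of the nodule of mouse 31 held Rgs1 at 706 CPM and Ikzf3 at 111 CPM, above the clone.

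**Figure D5:**
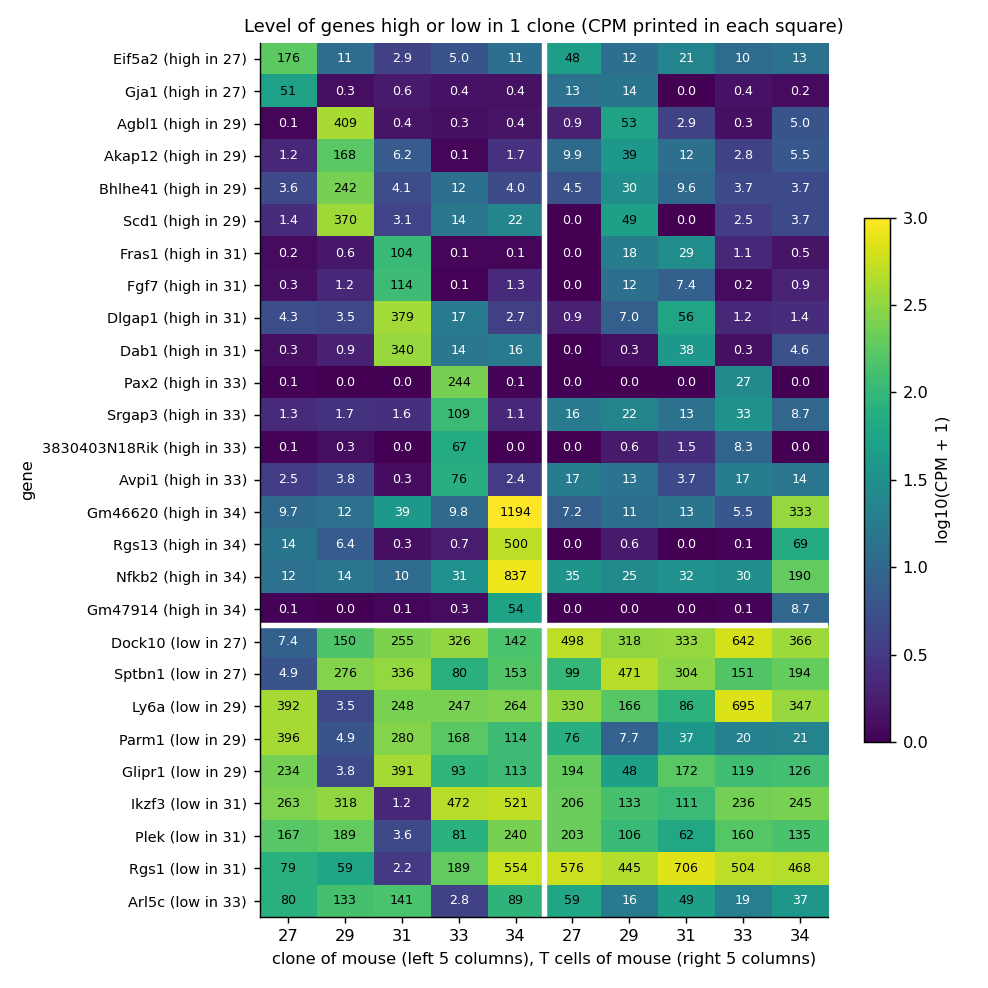
CPM, printed in each square and colored as log10(CPM + 1), of the named genes high in 1 clone (upper rows) and low in 1 clone (lower rows), in the 5 clones (left) and the T cells of the same mice (right). By the rule that chose the genes, each upper row has 1 bright clone and a lower level in the T cells of that mouse.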

How the data were processed

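UMI counts per gene and cell and assembled BCR contigs were deposited for droplet libraries (SeekGene kits) of total nodule cells. The authors assembled contigs with SeekSoulTools, the submitters' processing notes name the builds GRCm38 and mm10, and the aligner is not given in the sources used here. The methods name a 3′ kit for RNA and a 5′ kit for V(D)J libraries, whereas the labels of the RNA samples name the 5′ kit, so which end was counted was not settled. Per the file headers a contig row gives V and J genes, CDR3 nucleotides and UMIs, and no coordinates were used.

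Counts were summed per mouse and cell group, because cells of 1 nodule are not replicates. The clone was tested against T cells (5 mice) and other B cells (4 mice) with edgeR 4.0.16 in R 4.3.3 (quasi-likelihood test, TMM scaling, filterByExpr, mouse as a block, Benjamini-Hochberg adjusted p of 0.05). No doublet caller was run, and cells with a BCR contig and Cd3 UMIs were left out. The block was used because both sums of a mouse come from 1 nodule, and deviations from the group means correlated within a mouse (r = 0.366 to 0.504 for T cells and 0.186 to 0.421 for other B cells). On counts simulated from these sums, 88% of genes changed by 2 on the log2 scale and 98% of those changed by 3 were recovered against other B cells (8950 genes, 18 false of 204 calls), and 89% and 100% against T cells (12387 genes, 7 false of 196 calls). The changed genes were drawn from the more highly expressed genes only, and no difference between mice was simulated. Recovery among weakly expressed genes, or with differences between nodules, was therefore not measured.

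The members, gene lists and tests were chosen with earlier results of these data known. Listed genes could be named. Against other B cells the 12 higher and 12 lower called genes with the largest fold change and 1 direction in all mice were named, and of genes high or low in 1 clone the first 4 and 3 per clone by ratio. V, D and J segments and sex-linked genes were left out of these rules. Per-cell shares were taken after thinning each cell to 2000 UMIs, with Clopper-Pearson intervals, and CPM have exact Poisson intervals, both covering counting error only. The alternatives were DESeq2 1.42.0, RLE scaling, no filter, no block, other definitions of members, T cells and other B cells, other depths and fold limits, and each mouse left out. Some listed genes are not reported here singly.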

Additional observations from a re-analysis of the deposited data

Results flagged for a closer look

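In 40 groups of 5 clone values, the gap of 1 clone to the nearest other clone was compared with the range, and 7 groups passed Dixon's critical value of 0.71. Chance flags about 1 in 20 such groups, but members and lists were chosen with earlier results of these data known. The count of flags can therefore not be set against that rate. With 1 nodule per clone this is no test between clones, and all 7 flags are descriptions only. Earlier results also chose the genes of the list of other tissues, and the light chain contig chose the members. In clone 31 the B-1 and marginal zone genes (1204 CPM), the genes of other tissues listed from earlier results of these data (2758 CPM) and the NK cell markers (88.7 CPM) were far above the other clones. Most of the B-1 and marginal zone sum came from Zbtb20 alone, and most of the NK cell sum from Klrb1c. In clone 34 the NF-κB genes stood apart at 2823 CPM. In clone 29 the neutrophil markers (515 CPM) and the stromal, endothelial and epithelial markers (123 CPM) did. Clone 27 had the highest median of light chain contig UMIs per member, at 245. The causes were not tested.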

How the results depend on the processing

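Against other B cells, the 14 called genes became 211 with DESeq2, 139 without a filter on low counts, 2 with members defined by the commonest heavy chain, 3 without the tenth of members with most UMIs and 27 without other B cells of at least 10 Jchain UMIs, an alternative chosen after seeing the data. Leaving out 1 mouse gave 6 (without mouse 31) to 35 (without mouse 29). Without the mouse block, which pairs both sums of a nodule, 0 genes were called by edgeR (795 at an unadjusted p under 0.05). Against T cells, 2282 genes were called without this block in place of 3543, and leaving out 1 mouse gave 2233 (without mouse 34) to 3135 (without mouse 29). Taking the commonest heavy chain in place of the light chain left 5385 members. Limiting clone 33 to members with the commonest heavy junction took its germinal centre list from 1494 to 2016 CPM. Its B cell identity list went from 1773 to 2308 CPM. Under other choices of members, 211 list levels of the clones left their counting interval and 314 did not. Genes high in 1 clone numbered 46, 84 with a 4-fold limit and 12 with 20 CPM added, and genes low in 1 clone 14, 47 and 2. The mean mitotic share was 62.2% when thinned to 5000 UMIs and 74.0% without thinning. Of the values for genes named against other B cells, 84 kept their side of the threshold, 82 did not, and none reversed. The cause of these changes was not tested. Clones rest on 1 nodule each, other B cells on 12 to 37 cells per mouse, and paralogous genes on the authors' counting.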
